A study of Mus musculus with 4 samples.

Results

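The Purkinje lineage transcription factors described here are 9 genes of the LIM homeobox, forkhead P and early B-cell factor families, chosen by symbol: Lhx1, Lhx5, Ldb1, Foxp1, Foxp2, Foxp4, Ebf1, Ebf2 and Ebf3. Every probe set whose annotation gave exactly one of these symbols was taken, which made 32 probe sets of 34945 with a single symbol, and 9 genes of 18193. The samples were Purkinje cells, inhibitory neurons that carry the output of the cerebellar cortex, cut by laser from frozen sagittal brain sections of intact male C57BL/6J mice aged 8 weeks. They form a single group of 4, with 2 per mouse for 2 mice, and are named by animal and sample as 1-1, 1-2, 2-1 and 2-2, with no treatment and no other genotype. Whether samples of 1 animal were separate captures is not stated in the labels, nor is the number of cells, so p-values measure only the spread between these samples, which may be technical.

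During development Lhx1 and Lhx5, LIM homeodomain proteins, act together in newly born Purkinje cells and bind the adaptor Ldb1, which joins LIM proteins into larger complexes on DNA. Foxp proteins are forkhead repressors that work as pairs, and Foxp2 is a widely used mark of Purkinje cells from their birth onwards. Early B-cell factors are DNA-binding proteins with a helix-loop-helix dimerization region, and mice without Ebf2 lose part of their Purkinje cells. The question addressed here was which of these developmental regulators still gave a signal in adult captured cells, and how far the samples differed.

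Levels are quantile-normalized log2 signals, and probe sets respond differently to the same amount of RNA, so the level of one is not set against that of another. Background was judged on each array from 50 measured genes known from organs outside the brain, and its bound, their 95th percentile, lay at 6.35, 6.31, 6.19 and 6.31 in the order of samples above. Of those background genes only the skin keratin Krt10 lay above it on all 4 arrays, at a mean of 7.40. Ebf2 and Ebf3, described below, had means of 7.11 and 7.44, so passing the bound does not by itself show expression. The 6 measured Purkinje markers all lay above the bound on all 4 arrays. Among them Calb1 (calbindin) stood at 13.68 in every sample, where it held the top rank. Car8, a carbonic anhydrase-related protein, stood at 13.50 ± 0.04 (SD, n = 2 animals). Median deposited signals ran from 8.40 to 11.4 between arrays, and the small number of arrays limits precision.

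Of the 9 genes, 5 lay above the bound on all 4 arrays with their brightest probe set: Lhx1, Foxp2, Ebf1, Ebf2 and Ebf3. The share over all named genes was 24.1%, against 55.6% here. Foxp4 lay above it on 3 arrays, Lhx5 on 2, Foxp1 on 1 and Ldb1 on none. Counted by probe set, 11 of 32 (34.4%) lay above on all 4 arrays, against 17.0% of all probe sets with a single symbol, while 5 did so on 1 to 3 arrays and 16 on none. The result by gene rests on the brightest probe set, and a gene with more probe sets has more chances to pass. The 9 genes have 32 probe sets, against 34945 for 18193 named genes, so more per gene. The shares of 55.6% and 24.1% are therefore not on an equal footing. With the median over a gene's probe sets only Lhx1 and Ebf1 passed, and 13.7% of all genes did.

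**Figure D1:**
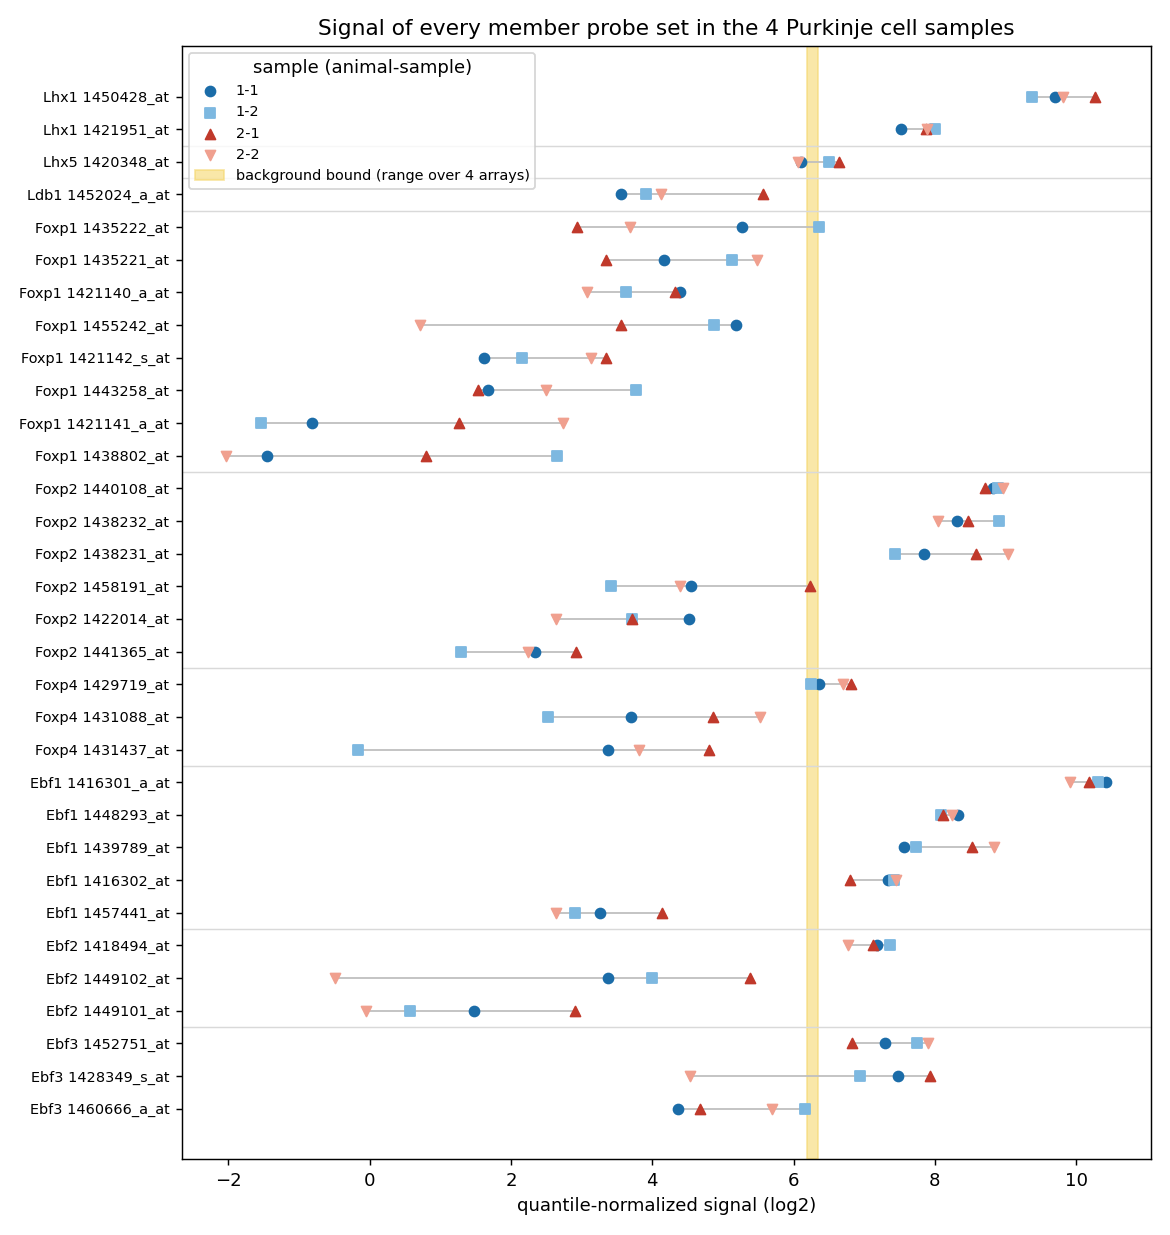
Quantile-normalized log2 signal (x axis) of all 32 probe sets of the 9 genes (y axis), with 1 point for each of the 4 samples, a grey line for their range and a yellow band for the background bound over the arrays. Lhx1, Foxp2 and Ebf1 each have several probe sets wholly above the band, and the 8 probe sets of Foxp1 lie below it except for sample 1-2 on 1435222_at.

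Promoter windows of 4 entries are shown here because they belong to genes on both sides of the bound, with Lhx1, Ebf1 and Ebf3 above it on every array and Foxp1 on 1 array. The Foxp1 window is 1 of 3, the one with the most motif matches, and was not picked independently of them. Each runs 5′ to 3′ from 250 bases before to 50 after an annotated start, from a table of RefSeq promoters on GRCm38.p6, in which 6 of the 9 genes were matched. Windows of Lhx5, Foxp2 and Ebf2 were not used here. Capitals mark CCCNNGGG, a core known for early B-cell factors, TAATTA, known for homeodomains, and TGTTTA, known for forkhead proteins, each searched on both strands.
Lhx1, chr11:84525485-84525784, minus strand: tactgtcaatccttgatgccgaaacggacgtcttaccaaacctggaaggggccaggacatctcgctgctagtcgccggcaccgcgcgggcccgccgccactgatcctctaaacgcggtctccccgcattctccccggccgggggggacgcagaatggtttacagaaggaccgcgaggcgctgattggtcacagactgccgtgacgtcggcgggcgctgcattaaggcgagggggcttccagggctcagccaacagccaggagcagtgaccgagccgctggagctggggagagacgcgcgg
Ebf1, chr11:44617850-44618149, plus strand: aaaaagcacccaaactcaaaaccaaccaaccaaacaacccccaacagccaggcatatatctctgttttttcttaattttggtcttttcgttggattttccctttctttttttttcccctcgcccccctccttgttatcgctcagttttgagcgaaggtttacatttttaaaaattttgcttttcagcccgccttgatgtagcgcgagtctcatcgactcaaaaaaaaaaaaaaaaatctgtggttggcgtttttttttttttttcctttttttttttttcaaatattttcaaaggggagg
Ebf3, chr7:137314396-137314695, minus strand: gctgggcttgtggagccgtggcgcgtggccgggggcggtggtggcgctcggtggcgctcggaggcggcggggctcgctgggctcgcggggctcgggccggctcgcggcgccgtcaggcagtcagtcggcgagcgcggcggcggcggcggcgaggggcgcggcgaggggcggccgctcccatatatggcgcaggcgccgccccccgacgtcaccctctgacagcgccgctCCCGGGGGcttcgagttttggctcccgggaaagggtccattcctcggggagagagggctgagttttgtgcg
Foxp1, chr6:99266466-99266765, minus strand: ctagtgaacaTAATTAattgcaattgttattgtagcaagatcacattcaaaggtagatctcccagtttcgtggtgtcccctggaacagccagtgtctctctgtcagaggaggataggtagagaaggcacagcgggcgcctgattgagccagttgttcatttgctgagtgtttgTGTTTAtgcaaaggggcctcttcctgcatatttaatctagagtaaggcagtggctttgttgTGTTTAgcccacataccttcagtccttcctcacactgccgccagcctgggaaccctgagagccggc

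The windows differ in composition. Ebf3 and Lhx1 held 46 and 31 CpG dinucleotides, against a median of 7 over 32851 promoter windows, with a GC content of 77% and 65.7%. This start of Ebf1 held 9 CpG at a GC content of 36.7%, lower than all but 5.33% of windows, and the other start of Ebf1, chr11:44619978-44620277, held 17 at 53%. The Foxp1 window shown held 5 CpG at a GC content of 48.7%, and its other windows held 44 at 75.3% and 13 at 60.3%. The 3 windows of Ldb1, which are not shown, held 5, 23 and 41. Over the 11 windows of the 6 genes, CCCNNGGG occurred in 3 (13.7% of all windows), TAATTA in 1 (5.29%) and TGTTTA in 4 (13.4%). The 4 windows with TGTTTA belonged to Foxp1 and Ldb1 alone, and windows of 1 gene are not independent. None of the 3 motifs was found in the windows of Lhx1 or Ebf1. A match is a run of letters and no measured binding.

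Among the LIM factors, Lhx1 gave a signal well over the bound on both of its probe sets. On 1450428_at it stood at 9.70 and 9.37 in samples 1-1 and 1-2 and at 10.26 and 9.82 in samples 2-1 and 2-2. On 1421951_at, made from the same source sequence, it stood at 7.52, 8.00, 7.87 and 7.89. Both lie over the bound in every sample, by 3.5 and 1.53 on average. The means were 9.79 ± 0.36 and 7.82 ± 0.08 (SD, n = 2 animals).

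Lhx5, the partner of Lhx1, had 1 probe set, 1420348_at, which lay at the edge of the bound. Its levels were 6.10, 6.50, 6.64 and 6.06, above the bound in samples 1-2 and 2-1 and below it in samples 1-1 and 2-2. The mean was 6.33 ± 0.03 (SD, n = 2 animals), 0.035 over the bound on average. At such a level a gene is not told apart from background. With the bound at the 90th percentile, 5.46 to 5.64 on the arrays, Lhx5 and Foxp4 passed on all 4 arrays too, and 7 of 9 genes then did, against 30.4% of all genes. Whether these 2 genes pass depends on the bound, and so on the background genes chosen for it.

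Ldb1, the adaptor of both factors, was below the bound on every array on its only probe set, 1452024_a_at, at 3.56, 3.91, 5.57 and 4.12. A single dim probe set does not show that the transcript was absent. Other LIM cofactors and LIM-only genes passed in 3 of 9 cases. Ssbp2, from a family that binds and stabilises Ldb1, was at 8.70 ± 0.56, Rlim, a ubiquitin ligase that acts on LIM cofactors, at 7.76 ± 0.03, and the LIM-only adaptor Lmo2 at 8.15 ± 0.75 (SD, n = 2 animals). Rlim was read on an _x_at probe set, which can bind other transcripts. The related adaptor Ldb2, Ssbp3, Ssbp4, Lmo1, Lmo3 and Lmo4 were below the bound on every array. Of 10 other LIM homeodomain genes (Lhx2, Lhx3, Lhx4, Lhx6, Lhx8, Lhx9, Isl1, Isl2, Lmx1a and Lmx1b) 0 lay above it on any array.

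Foxp2 was above the bound in every sample on 3 of its 6 probe sets. On 1440108_at it stood at 8.82, 8.89, 8.70 and 8.96, with a mean of 8.84 ± 0.02 (SD, n = 2 animals). The lowest and highest samples, 2-1 and 2-2, differed by 0.25 there. On 1438232_at the levels were 8.32, 8.91, 8.47 and 8.04, and on 1438231_at, made from the same source sequence, 7.84, 7.43, 8.58 and 9.03. The animals overlapped on the first of this pair and did not on the second. The other 3 probe sets were dim, with means of 4.65 ± 0.94, 3.64 ± 0.67 and 2.20 ± 0.54, and only 1458191_at crossed the bound, in sample 2-1.

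Foxp4 lay above the bound on 3 of 4 arrays, on 1 of its 3 probe sets. On 1429719_at its levels were 6.37, 6.25, 6.81 and 6.69, over the bound in all samples except 1-2, with a mean of 6.53 ± 0.32 (SD, n = 2 animals). Without sample 1-2, the only one below the bound, Foxp4 passed on all remaining arrays. In that setting 6 of 9 genes did, against 24.7% of all genes. With any other sample left out Foxp4 did not pass. Its other probe sets, at 4.15 ± 1.48 and 2.95 ± 1.91, lay below on every array.

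Foxp1 was the gene with the most probe sets, 8, and 7 of them lay below the bound on every array. Its brightest, 1435222_at, stood at 5.28, 6.36, 2.94 and 3.68, over the bound in sample 1-2 alone. Both samples of animal 1 were above both of animal 2 there, but at levels where no test was made. Means of the remaining probe sets ran from -0.01 to 4.53. The 8 probe sets came from 4 source sequences, 2 of which gave 3 probe sets each, so they are not independent readings. Of relatives and partners of these families, Ctbp1, a corepressor known to bind forkhead P proteins, was above the bound on all 4 arrays at 9.08 ± 0.19 (SD, n = 2 animals). Gatad2b, Zfp423 and Zfp521 were above it on 1 array each, and Foxp3 and Ebf4 on none.

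Of the early B-cell factors, Ebf1 gave the broadest signal, with 4 of 5 probe sets above the bound in every sample. On 1416301_a_at it stood at 10.43, 10.30, 10.18 and 9.91, with a mean of 10.20 ± 0.23 (SD, n = 2 animals). On 1448293_at it stood at 8.32, 8.08, 8.11 and 8.24, and on 1416302_at at 7.33, 7.42, 6.80 and 7.45. These 3 came from 1 source sequence. On 1416301_a_at both samples of animal 2 lay below both of animal 1, and on the last 2 the animals overlapped. On 1439789_at, from another source sequence, the levels were 7.56 and 7.73 in animal 1 and 8.53 and 8.84 in animal 2, with no overlap. The fifth, 1457441_at, lay below the bound on every array at 3.24 ± 0.21.

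Ebf2 rested on 1 of 3 probe sets. On 1418494_at its levels were 7.18, 7.36, 7.13 and 6.76, all over the bound, with a mean of 7.11 ± 0.23 (SD, n = 2 animals). The other probe sets, 1449102_at and 1449101_at, came from the same source sequence and lay below the bound on every array. On 1449102_at the samples of animal 2 stood at 5.38 and -0.49, a gap of 5.87 within that animal. With the bound at the 99th percentile Ebf2 no longer passed, and the other 4 genes did, against 17.9% of all genes.

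Ebf3 was above the bound in every sample on 1452751_at, at 7.30, 7.75, 6.82 and 7.91, with a mean of 7.44 ± 0.11 (SD, n = 2 animals). On 1428349_s_at, made from the same source sequence, it stood at 7.47, 6.94, 7.92 and 4.54. Sample 2-2 alone was below the bound there, 3.39 under sample 2-1 of the same animal, while it was the highest sample on 1452751_at. The suffix _s_ marks a probe set that can bind transcripts of several genes, so 1428349_s_at may not read Ebf3 alone. The third probe set, 1460666_a_at, was below the bound on every array at 5.22 ± 0.06.

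Regulators of early cerebellar development and of the Purkinje lineage were compared with the same bound, and 3 of 12 measured genes passed on all 4 arrays. Rora, the nuclear receptor mutated in the staggerer mouse, was at 11.86 ± 0.09, Skor1, a transcriptional corepressor, at 9.42 ± 0.17 and En2, a homeobox gene of hindbrain patterning, at 7.0 ± 0.31 (SD, n = 2 animals). The progenitor factors Ptf1a, Neurog1, Neurog2, Olig2, Olig3 and Gsx1 and the patterning genes En1, Gbx2 and Otx2 lay below the bound on every array. Skor2 was not analysed here. Of 4 genes reported as targets of these factors, Igf1, a growth factor placed downstream of Ebf2 in mouse, was at 8.65 ± 0.33, and Cntnap2, an adhesion protein regulated by FOXP2 in human cells, at 8.53 ± 0.64. Espn, an actin-bundling protein placed downstream of Lhx1 and Lhx5 in mouse Purkinje cells, and Srpx2 lay below it on every array.

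**Figure D2:**
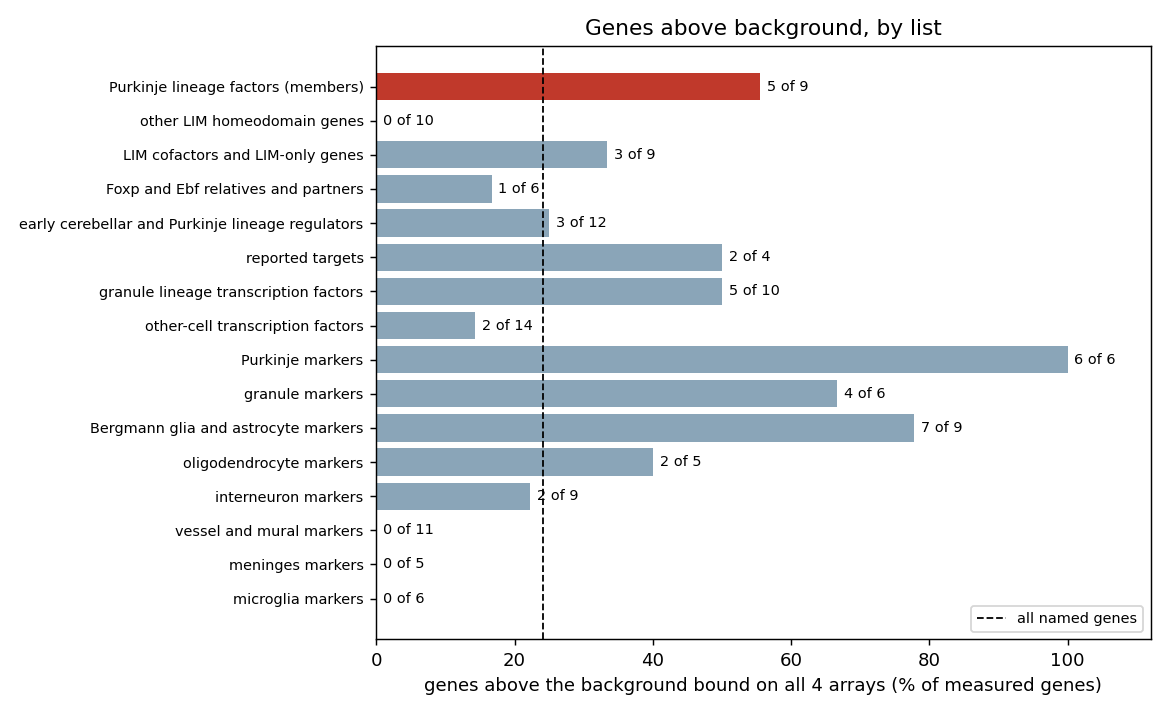
Share of measured genes (x axis, percent) above the background bound on all 4 arrays, for the 9 Purkinje lineage factors (red) and each comparison list (blue), with counts beside the bars and a dashed line at the 24.1% of all named genes. The factors stand at 5 of 9, other LIM homeodomain genes at 0 of 10 and vessel and mural cell markers at 0 of 11. Genes pass by their brightest probe set, and the 9 factors have more probe sets per gene than named genes as a whole.

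Other cells lie beside Purkinje cells in a laser capture, and in such samples fewer cells of a type and less RNA per cell cannot be told apart. Transcription factors of the granule lineage passed the bound on all 4 arrays in 5 of 10 cases, with Zic1 at 10.52 ± 0.91, Neurod1 at 7.58 ± 1.39, Nfix at 7.27 ± 0.52, Nfia at 6.93 ± 0.88 and Nfib at 6.88 ± 0.33 (SD, n = 2 animals). Atoh1, Pax6, Zic2, Barhl1 and Meis1 were below it on every array. Those of interneurons, glia, vessels and microglia passed in 2 of 14 cases, the stem cell and glial factor Sox2 (8.11 ± 0.24) and the oligodendrocyte factor Olig1 (8.35 ± 0.37). Tfap2a did so on 3 arrays, and the other 11 did on none.

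Markers of these cells were read in the same way. Bergmann glia and astrocyte markers passed in 7 of 9 cases, among them Gja1 (11.72 ± 0.40, on an _x_at probe set) and Hopx (11.58 ± 0.04). Granule markers passed in 4 of 6, among them Gabra6 (9.30 ± 0.87, SD, n = 2 animals) and Zic1 and Neurod1, which stand in both granule lists. Among granule markers that did not pass, Reln was above the bound on 3 arrays and Slc17a7 (1.98 ± 0.31) on none. Oligodendrocyte markers passed in 2 of 5 cases, Cnp (11.38 ± 0.48) and Mbp (10.18 ± 0.09), both on _x_at probe sets, which can bind other transcripts, while Mog, Mag and Mobp lay below the bound on every array. Interneuron markers passed in 2 of 9 cases, Lgi2 (7.72 ± 0.57) and Prkcd (6.87 ± 0.47). Ebf1 is also known from mural cells of vessels. Of 11 vessel and mural markers 0 passed on all 4 arrays. The mural marker Rgs5 (6.55 ± 0.14) did so on 3 and Pdgfrb (5.21 ± 1.37) on 1, and the other 9, Cldn5, Pecam1 and Cdh5 among them, on none. Meninges markers passed in 0 of 5 cases, with the collagen gene Col1a2 (5.0 ± 0.19) and the growth factor gene Igf2 (3.17 ± 0.07) below the bound on every array. Microglia markers did so in 0 of 6, with the receptor genes Csf1r (6.94 ± 1.03) above on 3 arrays and Cx3cr1 (2.03 ± 0.58) on none.

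Animal 2 was then set against animal 1 over the 9154 probe sets that passed the bound on 2 or more arrays, in limma with Benjamini-Hochberg adjustment. Of the 32 probe sets of these genes 14 entered, from Lhx1, Lhx5, Foxp2, Foxp4, Ebf1, Ebf2 and Ebf3, and 0 were called, against 0.568% of all probe sets (52, of which 30 were higher and 22 lower in animal 2). At an unadjusted p under 0.05 there were 2 of 14, against 19.5% of all. Both animals carry the same labels, so the comparison describes these samples. Differences ran from -0.98 to 1.16, 6 above and 8 below 0, with a median of -0.03 against -0.05 over all probe sets tested.

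The 2 probe sets with the smallest p belonged to Foxp2 and Ebf1. Foxp2 on 1438231_at stood 1.16 ± 0.31 higher in animal 2 (SE from limma with 2 samples in each animal, adjusted p = 0.133), higher in both samples of animal 2 than in both of animal 1. Ebf1 on 1439789_at stood 1.04 ± 0.28 higher (adjusted p = 0.138, limma), again without overlap. Differences on their other probe sets lay near or below 0. Foxp2 1440108_at stood at -0.03 ± 0.24 and 1438232_at at -0.36 ± 0.32 (adjusted p = 0.966 and 0.583, limma). Ebf1 stood at -0.32 ± 0.17 on 1416301_a_at, -0.03 ± 0.27 on 1448293_at and -0.25 ± 0.37 on 1416302_at (adjusted p = 0.347, 0.968 and 0.759, limma).

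Ratios between probe sets of a gene, taken within each sample on the log2 scale, were compared between the animals as well. Foxp2 1438231_at minus 1440108_at was -0.98 and -1.45 in animal 1 and -0.13 and 0.07 in animal 2, a shift of 1.19 (exact permutation test, two-sided, p = 0.333). Ebf1 1439789_at minus 1416301_a_at was -2.87 and -2.57 in animal 1 and -1.65 and -1.07 in animal 2, a shift of 1.35 (p = 0.333, exact). With 2 samples against 2, 0.333 is the smallest p this test can give, so it cannot reach 0.05. Of 7 such ratios, the remaining 5 shifted by -0.82 to 0.29. The adjusted p over the 7 was 0.778 for both of the above. It was the same for Ebf1 1448293_at minus 1416301_a_at (shift of 0.29, p = 0.333, exact).

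**Figure D3:**
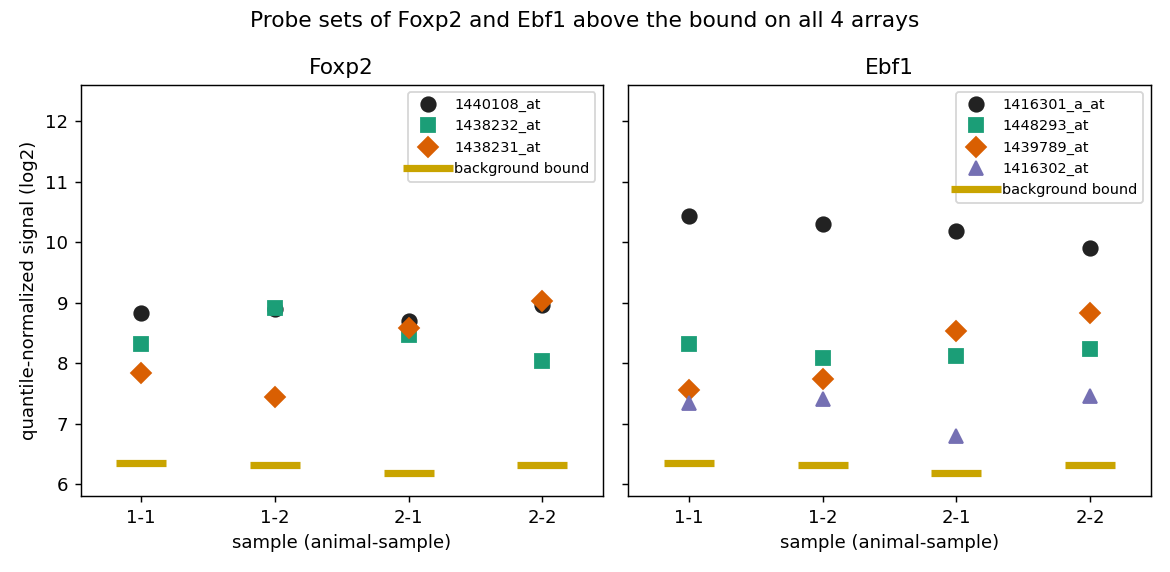
Quantile-normalized log2 signal (y axis) in each sample (x axis) of the probe sets of Foxp2 (left) and Ebf1 (right) that lay above the background bound (yellow dashes) on all 4 arrays. The diamonds, Foxp2 1438231_at and Ebf1 1439789_at, stand higher in both samples of animal 2 than in both of animal 1, and the other symbols do not.

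Among the remaining genes, Lhx1 stood 0.50 ± 0.23 higher in animal 2 on 1450428_at (adjusted p = 0.283, limma), without overlap but with samples 2-2 (9.82) and 1-1 (9.70) close together. On 1421951_at it stood at 0.12 ± 0.31. Foxp4 stood at 0.45 ± 0.44, Lhx5 at 0.05 ± 0.52, Ebf2 at -0.32 ± 0.36 and Ebf3 at -0.16 ± 0.45 on 1452751_at, with adjusted p from 0.621 to 0.969. Ebf3 on 1428349_s_at stood at -0.98 ± 1.02 (adjusted p = 0.639, limma), where the SE is larger than the difference. Both samples of animal 2 lay above both of animal 1 on 4 of 14 probe sets, against 24.4% of all probe sets tested, and below them on 2, against 26.6%. These shares are near or under the background.

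**Figure D4:**
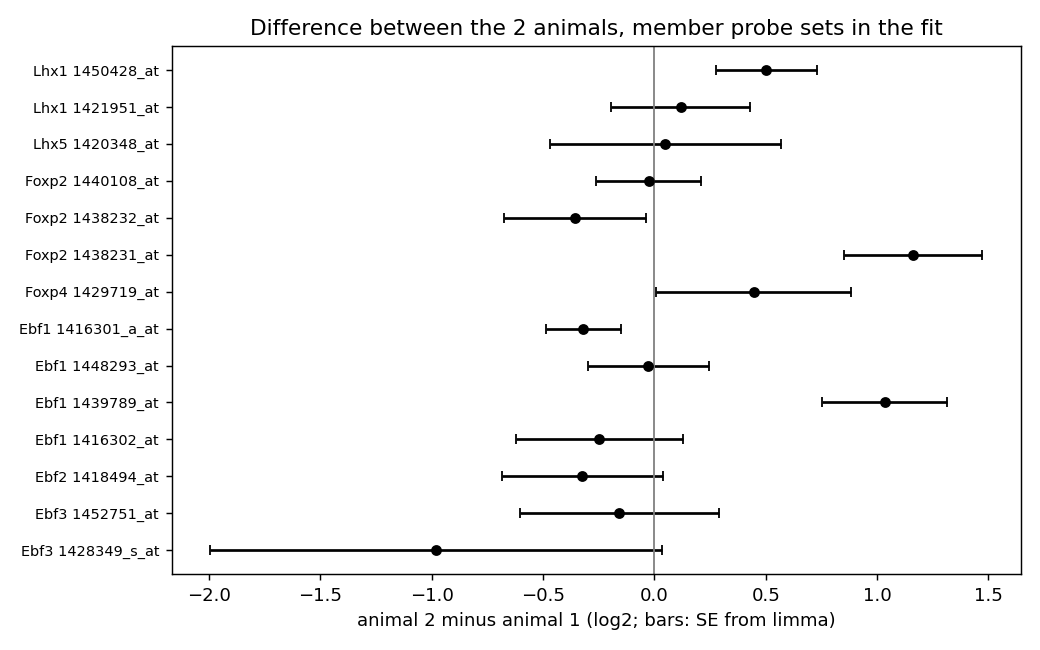
Difference of animal 2 minus animal 1 (x axis, log2) for the 14 probe sets in the fit (y axis), with points for the estimate and bars for its SE from limma. Foxp2 1438231_at and Ebf1 1439789_at lie farthest to the right at 1.16 and 1.04, and 0 of the 14 were called.

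The calls depended on 1 sample and on the scaling. Without sample 2-1 there were 3 calls: Foxp2 1438231_at (1.40 ± 0.31, adjusted p = 0.0388), Ebf1 1439789_at (1.20 ± 0.28, adjusted p = 0.0462) and Ebf3 1428349_s_at (-2.62 ± 0.47, adjusted p = 0.0258, limma). Over all probe sets 792 were called in that setting (9.40%). The spread then came from the animal 1 pair alone, and sample 2-2 was taken to vary like it. With no normalization, where animal 2 exceeded animal 1 by a median of 0.47 over the probe sets tested, the 3 calls were Foxp2 1438231_at (1.71 ± 0.36), Ebf1 1439789_at (1.59 ± 0.33) and Lhx1 1450428_at (0.98 ± 0.23, adjusted p = 0.0427, limma). Of the 14 differences 13 were above 0 on that scale, so 7 of the 14, all uncalled, changed sign with the scaling. Over all probe sets 728 calls were made on that scale (7.95%), of which 714 were higher in animal 2 and 14 in animal 1.

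Samples of 1 animal differed by a median of 0.28 in animal 1 and 0.40 in animal 2 over the 14 probe sets, against 0.25 and 0.42 over all probe sets tested. Sums of cell markers stand beside these values, with the lower of each animal's 2 sums first, whichever sample gave it. The summed normalized linear signal of 6 granule markers was 3887 and 4886 in animal 1 and 1751 and 1884 in animal 2. That of 9 Bergmann glia and astrocyte markers was 13202 and 13208 against 9730 and 10968, an order that turned on deposited values, at 11263 and 11476 against 11770 and 12374. For 6 Purkinje markers it was 45933 and 46393 in animal 1 and 52283 and 52800 in animal 2. Interneuron markers, 9 in number, summed to 477 and 499 in animal 1 and 557 and 564 in animal 2. Of these 9, 5 lay below the bound on every array, and the 2 above it on all 4 arrays moved in opposite directions. Lgi2 stood at -0.81 ± 0.30 and Prkcd at 0.67 ± 0.42 (adjusted p = 0.218 and 0.43, limma). Nxph1, above the bound on 2 arrays, stood at 2.41 ± 0.84 (adjusted p = 0.196, limma). Oligodendrocyte markers, of which 5 were measured, summed to 4416 and 4680 against 2993 and 3821, and on deposited values the animals overlapped. Most or all vessel and mural, meninges and microglia markers lay below the bound on every array, so their sums are of limited use. The vessel and mural sum was 309 and 340 in animal 1 and 175 and 189 in animal 2. Its 1 marker in the fit, Rgs5, stood at 0.20 ± 0.44 (adjusted p = 0.84, limma). The 1 microglia marker in the fit, Csf1r, stood at -1.46 ± 0.38 (adjusted p = 0.131, limma). The granule, Purkinje, interneuron and vessel and mural sums kept their order on deposited values. Zic1 fell by 1.29 ± 0.18 (adjusted p = 0.0414, limma) and Pcp2, a regulator of G protein signalling, rose by 0.57 ± 0.07 (adjusted p = 0.0311, limma) from animal 1 to animal 2. Their part in the differences of the 9 genes was not tested.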

How the data were processed

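Amplified, biotin-labelled RNA was hybridized to Affymetrix arrays. The deposited values are linear intensity signals per probe set, and the submitters' processing notes name GCOS as the tool. Its version, algorithm and scaling target: not given in the sources used here. In all, the table held 45101 probe sets and 0 columns of other samples. Genes came from the platform annotation: 34945 probe sets had 1 symbol, 932 several and 9160 none. The 64 controls were left out.

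From the deposited values, signals under 0.1 were set to 0.1 and log2 was taken. Since trimmed means of the arrays spread over 46.6% of their mean, quantile normalization was applied (limma 3.58.1, R 4.3.3). A gene's level is that of its brightest probe set, as mean ± SD over 2 animals. Of 56 background genes listed, 50 were measured. Animals were compared by moderated linear models in limma (trended eBayes, 2 residual degrees of freedom) at an adjusted p of 0.05. Genes named were all probe sets of the 9 genes, list genes above the bound on all 4 arrays and the 2 brightest of each marker list. Other list genes were named after their values were seen. On simulated data of 9154 probe sets, 32% of 100 changes of 1 (log2) and 88% of 100 changes of 2 were called, with 4% of calls false. The simulated noise was normal, with an SD set by signal level alone, so probe sets had no spread of their own. Those shares may therefore not hold for the real arrays. Members and lists were chosen with earlier results of these data known. Alternatives were other scalings, bounds, filters and probe set choices, and each sample left out. Scanner files were not used here.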

Additional observations from a re-analysis of the deposited data

How the results depend on the processing

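Lhx1 and Ebf1 lay above background under every scaling, bound, probe set choice and left-out sample tried. The count of such genes was 4 to 7, except with the median over probe sets (2, against 13.7% of all genes). Calls among the 14 probe sets were 0 except on values as deposited (3), where their median difference was 0.51, and without sample 2-1 (0 to 3 over left-out samples). Calls over all probe sets were 728 as deposited, 185 with the bound at the 99th percentile, 193 when all arrays had to pass the bound, 21 without _s_at and _x_at, 5 with no filter, 0 without the trend and 6 to 940 with a sample left out. Without the trend 0 were called where limma with it called 52 and 1784 had an unadjusted p under 0.05. The causes were not tested.

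Some differences, none of them called at the reported settings, changed sign. As deposited, Foxp2 stood at 0.49 (1440108_at) and 0.18 (1438232_at), Ebf1 at 0.13 (1416301_a_at), 0.52 (1448293_at) and 0.33 (1416302_at), Ebf2 at 0.28 and Ebf3 at 0.42 (1452751_at). Scaled to a common trimmed mean, Ebf1 1448293_at stood at 0.021. With a sample left out, Lhx1 1421951_at ranged from -0.12 to 0.35 and Foxp2 1440108_at from -0.15 to 0.098. Ebf1 1448293_at ranged from -0.14 to 0.091 and Ebf1 1416302_at from -0.58 to 0.081. Ebf3 1452751_at ranged from -0.70 to 0.39 and Ebf3 1428349_s_at from -2.62 to 0.72. Lhx5 entered the fit only without sample 1-1 (-0.15) and without sample 2-2 (0.34). Of 81 levels under alternatives, 62 moved by less than the SD over animals and 19 did not, 6 of them with the median over probe sets. The brightest probe set of Foxp1 was not the same under every scaling, so its levels do not all come from 1 probe set. Genes near the bound cannot be told from background at this signal. No paired analysis was possible because the samples form 1 group.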
